A study of Mus musculus with 6 samples.

Results

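The hyaluronan matrix genes described here are 10 genes that make, bind, sense or cut hyaluronan, a large matrix polysaccharide: Itih2, Itih5, Has1, Has2, Has3, Cd44, Hmmr, Vcan, Tnfaip6 and Hyal2. Their members were all probe sets whose gene symbol in the authors' deposited table was exactly one of these names, which gave 25 of 45037 probe sets and covered 8 of the 10 genes, out of 20703 gene symbols that a probe set names alone. The only probe set that names Has3 also names LOC100047776, and the only one that names Tnfaip6 also names LOC100044927, so neither gene has a member and their values are given as those of doubly named probe sets. The list was chosen from these data: Itih2 was picked by its log2 difference between the groups, among the largest of the series, so its values are a description, with no test. The other 9 genes were chosen for their role, with earlier results of these data known.

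RNA of 6 whole mammary tumours was measured on Affymetrix arrays, 1 array per tumour. In the Bmp4 tumours (n = 3) the 4T1.2 cells, a metastatic mouse mammary carcinoma line, carried the retroviral vector pBabepuro with murine Bmp4, and in the control tumours (n = 3) they carried pBabepuro alone. All tumours grew from 100000 cells in the inguinal fat pad of female Balb/c mice aged 6 to 8 weeks at the start and were taken at about 0.3 g. The mice were of the line's own strain, so host stroma and immune cells are part of each sample, and in whole tumours fewer cells of a type and less RNA per cell cannot be told apart. The labels do not say whether each tumour came from its own mouse or whether the cell lines are clones, so p-values measure only the spread between these tumours.

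Hyaluronan is spun out at the plasma membrane by the synthases HAS1, HAS2 and HAS3 from UDP-glucuronic acid and UDP-N-acetylglucosamine. In the matrix it is held by proteoglycans such as versican and, in inflamed tissue and in the cumulus matrix of the ovary, it takes up heavy chains of inter-alpha-inhibitor through the transferase TSG-6, encoded by Tnfaip6. Cells sense it through CD44 and RHAMM. RHAMM, encoded by Hmmr, is also known as a spindle protein of dividing cells. Hyaluronidases such as HYAL2 cut hyaluronan into fragments. In mammary carcinoma this matrix is known as a part of the tumour stroma.

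Itih2 encodes heavy chain 2 of inter-alpha-inhibitor, a plasma protein made mainly in liver, and Itih5 encodes a related heavy chain made in many tissues. In RefSeq's annotation of GRCm38.p6 the 2 genes are neighbours on chromosome 2, on opposite strands, with starts 22860 bases apart that point away from each other. Of the 10 genes, 8 had an upstream window in the RefSeq table, and Has2 and Has3 had none. The 250 bases before each of the 2 starts are shown because the results set these neighbours side by side. Capitals mark GTCT or its reverse complement AGAC, the short core bound by SMAD proteins. They also mark GGCGCC, a longer element bound by SMAD1 and SMAD5, and both strands were searched. The windows are chr2:10130684-10130933 on the minus strand for Itih2 and chr2:10153293-10153542 on the plus strand for Itih5, each printed 5′ to 3′.
Itih2: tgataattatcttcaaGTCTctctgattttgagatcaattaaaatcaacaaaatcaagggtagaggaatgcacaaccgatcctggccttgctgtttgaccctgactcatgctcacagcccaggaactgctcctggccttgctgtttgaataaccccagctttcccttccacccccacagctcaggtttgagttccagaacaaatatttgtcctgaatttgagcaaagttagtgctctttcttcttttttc
Itih5: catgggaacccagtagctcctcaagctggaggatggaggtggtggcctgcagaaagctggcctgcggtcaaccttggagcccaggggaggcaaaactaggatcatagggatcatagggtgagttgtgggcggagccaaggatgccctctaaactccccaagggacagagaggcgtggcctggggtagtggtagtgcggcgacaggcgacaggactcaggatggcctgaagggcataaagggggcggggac
The Itih2 window held 1 GTCT, the Itih5 window 0, and neither held GGCGCC. Of all 32851 RefSeq windows of this length, 82.9% held GTCT on either strand and 9.59% held GGCGCC, so a GTCT is the usual state of such a window. The share of G and C was 43.2% for Itih2, 61.2% for Itih5 and 52.4% in the median window. These letters describe the windows and say nothing about binding in the tumours.

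The single probe set of Bmp4 itself, 1422912_at, read 5.04, 4.94 and 5.51 in Bmp4 tumours, against 6.48, 5.93 and 4.99 in control tumours, so it did not show the introduced gene. Whether it can read the vector's transcript is not known here, so it does not check the labels, and Bmp4 tumours and control tumours mean the tumours labelled so throughout. The array of control tumour 1 stood apart from the others, and this touched nearly every gene on the list. Pearson's r across probe sets was 0.654 to 0.720 between this array and the rest, against 0.961 to 0.993 within the rest. Its values were compressed towards the middle. Probe sets that averaged 9 to 11 on the other 5 arrays (log2 expression) had a median 2.34 lower on this array, and those under 5 had a median 0.90 higher. Control tumour 1 was the lowest of the 6 arrays in 10 of the 25 member probe sets and the highest in 10. Of all 45037 probe sets it was the lowest in 13951 and the highest in 23771, so this is not particular to the list. For Actb, the 3' minus 5' probe set gap, a measure of RNA integrity, was 1.44 to 2.33 in Bmp4 tumours and 2.62 to 5.64 in control tumours, so it separated the groups. The same gap for Gapdh was 1.62 to 3.13 in Bmp4 tumours and 2.46 to 5.31 in control tumours, and overlapped. The part of RNA integrity in the results below was not tested. Of the 6 carcinoma epithelium markers measured, Krt8, Krt18 and Krt7 lay above the array median on all 6 arrays, Cdh1 on 5, Krt5 on 2 and Krt14 on 1. Comparisons are given with all 6 arrays and again without control tumour 1.

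**Figure D1:**
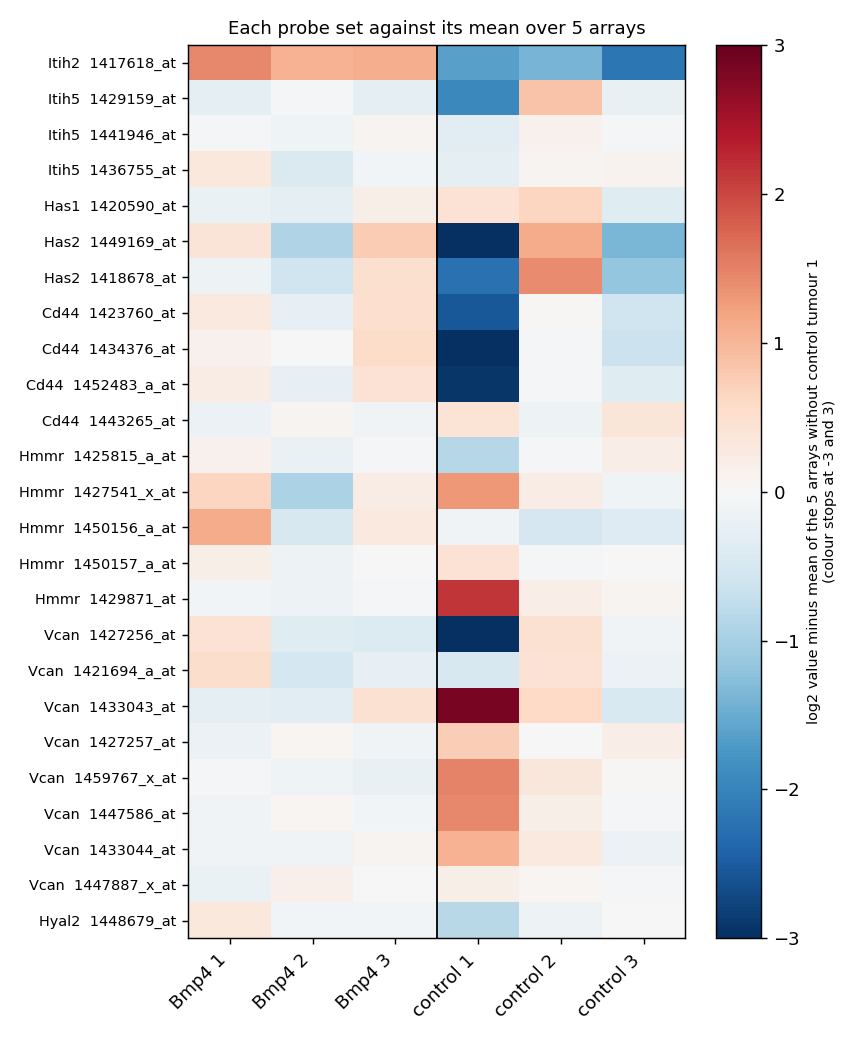
Log2 value of each of the 25 member probe sets (rows) on each array (columns, Bmp4 tumours left of control tumours), minus the mean of the probe set over the 5 arrays without control tumour 1. Itih2 is positive on the 3 Bmp4 arrays and negative on the 3 control arrays. Control tumour 1 has the strongest colour of its row in most rows. These include the Has2, Cd44 and Hyal2 rows, Itih5 1429159_at and the Hmmr rows other than 1450156_a_at. They also include the Vcan rows other than 1421694_a_at and 1447887_x_at.

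None of the 25 member probe sets passed limma's test (adjusted p under 0.05 over 45037 probe sets) with all 6 arrays, where 0% of all probe sets passed. Without control tumour 1, 0 of 25 passed and 0.00888% of all probe sets did. At an unadjusted p under 0.05, 1 member was higher and 0 lower in each setting, the 1 being Itih2, which was picked by this difference, against 1750 higher and 813 lower of all probe sets with 6 arrays and 3467 and 2576 without control tumour 1. The authors' deposited table gives an adjusted p under 0.05 to 0 probe sets, and an unadjusted p under 0.05 to 4129 of all probe sets. Among these are 3 of the 25 members, the probe sets Itih2 1417618_at, Cd44 1443265_at and Hmmr 1429871_at. The Cd44 and Hmmr probe sets lay under the 25th percentile on 6 and 5 of the 6 arrays. The smallest two-sided p that exact permutation of 3 tumours against 3 allows is 0.1.

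In 2 of the 25 probe sets, Itih2 and Cd44 1434376_at, the Bmp4 values all exceeded the control values, as they did in 10.6% of all probe sets. In 2, Hmmr 1429871_at and Vcan 1459767_x_at, they were all below the control values, against 14.9% of all; in either direction the share of all was 25.6%. Without control tumour 1 the counts were again 2 and 2, beside 14.0% and 19.0% of all probe sets, or 33.0% in either direction. Both of the lower ones were dim, under the 25th percentile of the array on 5 of 6 arrays. The median difference of the members, Bmp4 minus control on the log2 scale, was 0.00 with 6 arrays and -0.11 without control tumour 1, beside -0.20 and -0.06 for all probe sets. Positive differences numbered 12 and 8 of 25, beside 38.0% and 41.2% of all probe sets. Leaving Itih2 aside, the differences ran between -1.05 and 1.82 with 6 arrays and between -0.52 and 0.75 without control tumour 1.

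**Figure D2:**
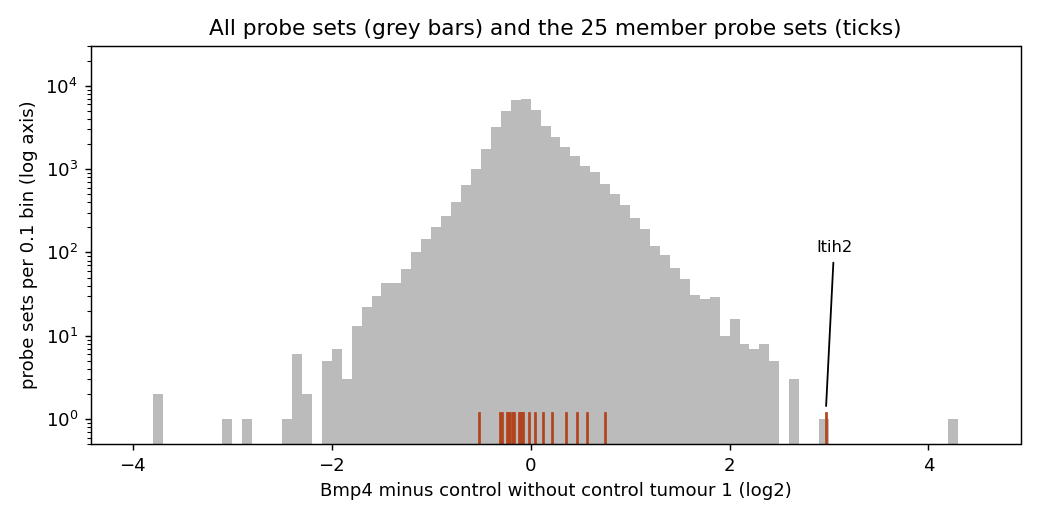
Number of probe sets in each 0.1 bin of the log2 difference, Bmp4 minus control without control tumour 1 (horizontal axis), on a log vertical axis, with the 25 member probe sets as ticks. The tick of Itih2 at 2.97 lies far to the right, and the other 24 lie between -0.52 and 0.75, within the bulk of all probe sets.

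Itih2 was measured by a single probe set, 1417618_at. Its log2 expression was 8.96, 8.57 and 8.61 in Bmp4 tumours 1 to 3, against 5.90, 6.13 and 5.36 in control tumours 1 to 3. The groups were far from overlapping: the lowest Bmp4 tumour lay 2.44 above the highest control tumour, while the values within a group spanned 0.38 in Bmp4 tumours and 0.78 in control tumours. The mean was 8.71 ± 0.21 in Bmp4 tumours and 5.80 ± 0.40 in control tumours (SD, n = 3 each), a difference of 2.92 ± 0.29 (SE), or 7.55-fold. Without control tumour 1 the difference was 2.97 ± 0.26 (SE), 7.83-fold, and with control tumour 3 alone it was 3.36. Its difference ranked 34 of 45037 among positive ones with 6 arrays and 2 without control tumour 1. In the authors' deposited table its ratio of Bmp4 over control is 10.4, the second highest listed there. The control values were not at the bottom of the arrays, since none of them lay under the 25th percentile and that of control tumour 2 lay above the array median.

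Rnf128, Kazald1, Ccr7, Smad6 and Scara5 had the patterns most like that of Itih2. Likeness was the root mean square difference over the 6 arrays after each probe set was centred on its own mean, among probe sets of other genes with at least median signal, and it was 0.402, 0.426, 0.518, 0.519 and 0.527 log2 units for the 5 genes in that order. RNF128 is a ubiquitin ligase of T cells, KAZALD1 a secreted protein with an IGF-binding domain, CCR7 a homing receptor of lymphocytes and dendritic cells, SMAD6 an inhibitor of BMP signalling and SCARA5 a ferritin receptor. No member of the list was as close: Cd44 1423760_at, at 1.19, was the nearest, and 6.30% of all probe sets were closer than it. As patterns chosen for their likeness to 1 separated gene, these all separate the groups by construction.

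Markers of some other cell types separated the same groups as Itih2, and their part in its difference was not tested. The mean over the 6 T cell markers lay between 8.55 and 8.69 in Bmp4 tumours and between 6.39 and 7.68 in control tumours, and in 5 of the 6 the groups did not overlap. The mean over the 5 mast cell markers lay between 7.44 and 7.74 in Bmp4 tumours and between 5.98 and 7.32 in control tumours, with 1 of 5 not overlapping. Of all probe sets, 10.6% did not overlap and were higher in Bmp4 tumours, and 14.9% did not overlap and were lower. Without control tumour 1 these shares were 14.0% and 19.0%, to be read beside all the marker counts here. Markers of fibroblasts (10.75 to 10.97 in Bmp4 tumours, 8.20 to 11.06 in control tumours), of monocytes and macrophages (10.28 to 11.21 in Bmp4 tumours, 8.50 to 10.57 in control tumours) and of carcinoma epithelium (8.15 to 8.36 in Bmp4 tumours, 8.06 to 8.52 in control tumours) overlapped. So did those of neutrophils (7.60 to 7.90 in Bmp4 tumours, 7.51 to 9.44 in control tumours), blood endothelium (6.61 to 6.80 and 6.30 to 7.37 in the same order), pericytes (8.29 to 8.45 and 7.98 to 8.87) and adipocytes (5.62 to 5.72 and 5.55 to 5.85). The monocyte and macrophage means overlapped through control tumour 3, at 10.57. Of these 6 markers, 5 had a positive difference with 6 arrays, and all 6 did without control tumour 1. Their median difference was then 1.19, beside 1.03 for the mast cell markers. In both settings 1 of the 6, Fcgr3, did not overlap and was higher. Without control tumour 1 the means of 2 further lists separated the groups, both lower in Bmp4 tumours. The pericyte and smooth muscle mean was 8.29 to 8.45 in Bmp4 tumours and then 8.68 to 8.87 in control tumours, with 3 of 5 markers not overlapping and lower (Rgs5 at -0.91, Pdgfrb at -0.89 and Cspg4 at -0.31), and 1, Myh11, not overlapping and higher. The carcinoma epithelium mean was 8.15 to 8.36 in Bmp4 tumours and then 8.47 to 8.52 in control tumours. Of its 6 markers 1 did not overlap, Cdh1, the E-cadherin gene, at -1.25. Krt7 differed by -0.71, while 4 of the 6 markers had a positive difference and the median was 0.11. The endothelial means still overlapped, while 3 of 5 endothelial markers (Cdh5, Kdr and Tek) did not and were lower. Pecam1 at 0.18 and Emcn at 0.03 overlapped. With 6 arrays only 1 of the 5, Cdh5, did not overlap. No probe set of these lists passed limma's adjusted test in either setting. None of the T cell, mast cell or fibroblast markers was under the 25th percentile on any array.

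Itih5, next to Itih2 on the chromosome, did not share its pattern in any of its 3 probe sets. The brightest, 1429159_at, read 7.75, 7.96 and 7.74 in Bmp4 tumours, against 6.08, 8.88 and 7.80 in control tumours. The Bmp4 tumours spanned only 0.22, and all of them lay between the control tumours. The difference was 0.23 ± 0.68 (SE; limma adjusted p = 0.821) with 6 arrays and -0.52 ± 0.32 (SE; adjusted p = 0.480) without control tumour 1, so its sign depended on that array. For 1441946_at the differences were 0.04 and -0.09, and for the dimmer 1436755_at they were -0.04 and -0.17. The gene on the other side of Itih2, Kin, chosen for its place after the values were seen, read 7.90, 7.76 and 8.28 in Bmp4 tumours and 5.74, 8.27 and 7.98 in control tumours. Its groups overlapped as well, with a difference of -0.14 without control tumour 1 (limma adjusted p = 0.751). The separation of the groups was thus seen at Itih2 and not at the gene on either side of it.

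**Figure D3:**
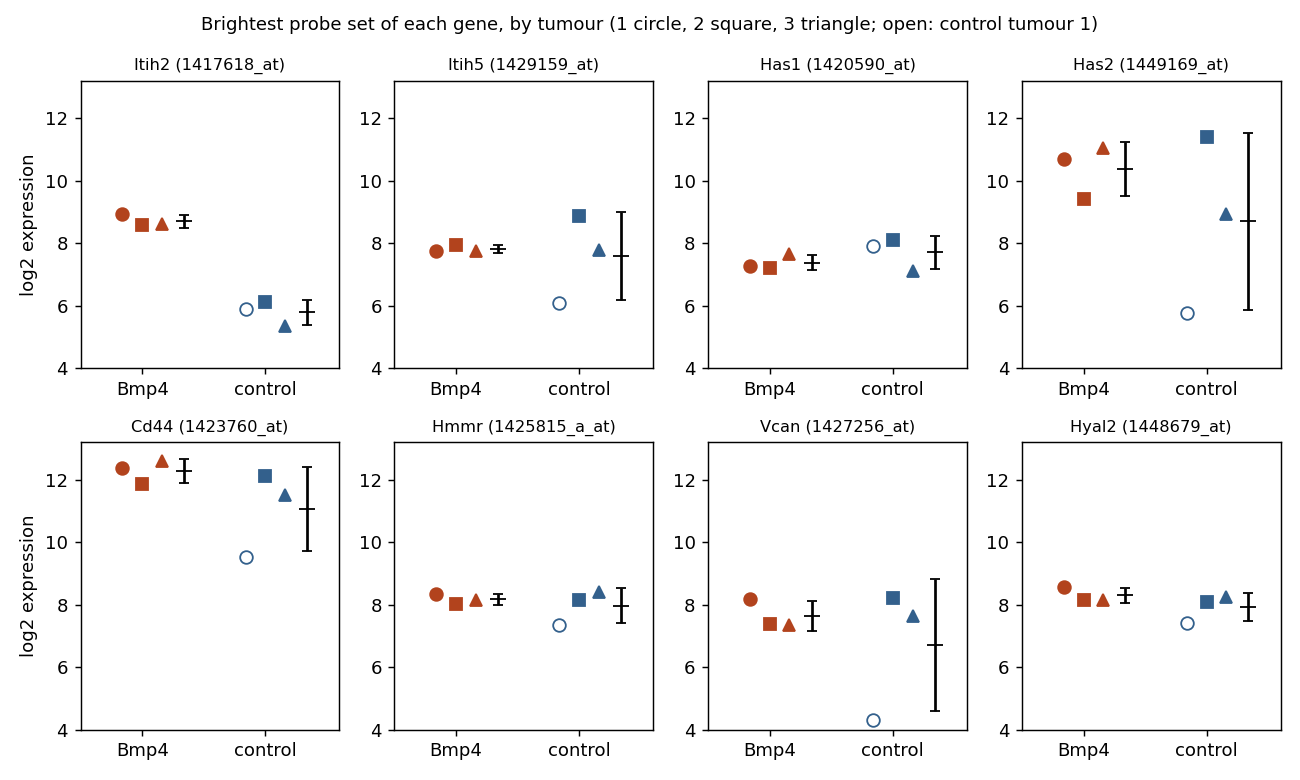
Log2 expression (vertical axis) of the brightest probe set of each of the 8 genes in Bmp4 tumours (left) and control tumours (right), with the group mean and SD beside the points. Itih2 is the only panel in which the groups do not overlap, and control tumour 1 (open circle) is the lowest point in the Itih5, Has2, Cd44, Hmmr, Vcan and Hyal2 panels.

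Among the synthases, Has2, the main hyaluronan synthase of fibroblasts and of many carcinoma cells, varied most between tumours, and the variation did not follow the groups. Probe set 1449169_at read 10.69, 9.41 and 11.06 in Bmp4 tumours, against 5.77, 11.42 and 8.93 in control tumours. The second, 1418678_at, read 9.42, 8.96 and 10.04 in Bmp4 tumours, against 7.33, 10.99 and 8.41 in control tumours. On both probe sets control tumour 2 was the highest array and control tumour 1 the lowest, and the 3 Bmp4 tumours lay between control tumours 2 and 3. Over the 5 arrays without control tumour 1 the values spanned 2.48 and 2.58, more than 99.0% and 99.2% of all probe sets, whose median span was 0.55. The difference for 1449169_at was 1.68 ± 1.38 (SE; limma adjusted p = 0.502), and 0.21 ± 0.80 (SE; adjusted p = 0.916) without control tumour 1. For 1418678_at it was 0.56 ± 0.92 (SE; adjusted p = 0.686) and -0.23 ± 0.74 (SE; adjusted p = 0.900). With control tumour 3 alone the differences were 1.45 and 1.06, and for 1449169_at leaving out control tumour 2 but keeping 1 gave 3.04. The size of the difference thus varied with the control tumours used on both probe sets; its sign turned on 1418678_at, and on 1449169_at it stayed positive in these choices.

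Has1, a synthase with a weaker activity than HAS2, read 7.28, 7.21 and 7.66 in Bmp4 tumours, against 7.91, 8.12 and 7.11 in control tumours. Control tumours 1 and 2 lay above all Bmp4 tumours and control tumour 3 below them. The difference was -0.33 ± 0.34 (SE; limma adjusted p = 0.547) and -0.23 ± 0.32 (SE; adjusted p = 0.744) without control tumour 1. The probe set named for both Has3 and LOC100047776, 1420589_at, lay under the array median on all 6 arrays, at 3.87, 4.60 and 4.59 in Bmp4 tumours and 5.26, 4.68 and 4.47 in control tumours. Its groups overlapped, and no synthase probe set separated Bmp4 from control tumours.

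Cd44, the main cell surface receptor for hyaluronan on carcinoma cells and leukocytes, was bright on 3 of its 4 probe sets, and on these the mean of the Bmp4 tumours was above that of the control tumours in both settings without passing the test. Probe set 1434376_at read 11.79, 11.66 and 12.22 in Bmp4 tumours, against 7.56, 11.62 and 11.02 in control tumours. The groups did not overlap there, although Bmp4 tumour 2 exceeded control tumour 2 by a small step only. The difference was 1.82 ± 1.03 (SE; limma adjusted p = 0.499), and 0.57 ± 0.25 (SE; adjusted p = 0.389), or 1.48-fold, without control tumour 1. Probe set 1423760_at read 12.39, 11.85 and 12.61 in Bmp4 tumours, against 9.54, 12.13 and 11.50 in control tumours. Here Bmp4 tumour 2 lay below control tumour 2, so the groups overlapped. Its difference was 1.23 ± 0.68 (SE; adjusted p = 0.499) and then 0.47 ± 0.29 (SE; adjusted p = 0.484). Probe set 1452483_a_at gave 1.26 and 0.35, again with Bmp4 tumour 2 (9.04) below control tumour 2 (9.21). With control tumour 3 alone, the 3 differences were 0.87, 0.78 and 0.50. The last probe set, 1443265_at, lay under the 25th percentile on every array, at 3.26 to 3.50 in Bmp4 tumours and 3.28 to 3.84 in control tumours, with a difference of -0.28 ± 0.26 (SE; adjusted p = 0.520).

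Hmmr was read by 5 probe sets that did not agree in direction. The brightest, 1425815_a_at, was nearly level, at 8.35, 8.02 and 8.15 in Bmp4 tumours, against 7.35, 8.16 and 8.41 in control tumours. Without control tumour 1 the 5 remaining arrays spanned 0.39 on it, and the difference was -0.11 ± 0.17 (SE; limma adjusted p = 0.774), after 0.20 ± 0.34 (SE; adjusted p = 0.690) with 6 arrays. The mean over the 8 markers of proliferating cells overlapped between groups too, at 9.10 to 9.78 in Bmp4 tumours and 7.30 to 9.66 in control tumours. Probe set 1450156_a_at read 6.71, 5.11 and 5.89 in Bmp4 tumours, against 5.50, 5.10 and 5.21 in control tumours. Bmp4 tumours 1 and 3 lay above all control tumours there and Bmp4 tumour 2 among them, a difference of 0.63 ± 0.43 (SE; adjusted p = 0.499), and 0.75 ± 0.43 (SE; adjusted p = 0.464) without control tumour 1, the most positive of the list after Itih2. Probe set 1429871_at read 4.06, 3.99 and 4.08 in Bmp4 tumours, against 6.29, 4.34 and 4.22 in control tumours, and its difference of -0.91 shrank to -0.24 without control tumour 1. The remaining 2 probe sets differed by -0.49 and -0.11, and by -0.07 and 0.04 without control tumour 1.

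Among the binding proteins, Vcan, the large proteoglycan versican, had 8 probe sets, of which 3 lay under the 25th percentile on every array. The brightest, 1427256_at, read 8.19, 7.38 and 7.34 in Bmp4 tumours, against 4.29, 8.22 and 7.64 in control tumours. Leaving out control tumour 1, which lay at least 3.04 below every other array, turned the difference to -0.29 ± 0.32 (SE; limma adjusted p = 0.673), against 0.92 ± 1.02 (SE; adjusted p = 0.565) with it. The second, 1421694_a_at, read 7.13, 6.07 and 6.35 in Bmp4 tumours, against 6.10, 7.02 and 6.42 in control tumours, a difference of -0.21 ± 0.35 (SE; adjusted p = 0.795) without control tumour 1. All 8 Vcan differences were negative without control tumour 1, from -0.31 to -0.02, and none passed the test. The probe sets of 1 gene share their RNA and are no replicates of each other, and 58.8% of all probe sets had a difference of 0 or below in that setting.

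The probe set named for both Tnfaip6 and LOC100044927, 1418424_at, read 7.59, 6.95 and 7.35 in Bmp4 tumours, against 6.07, 9.51 and 6.83 in control tumours. Control tumour 2 stood at least 1.92 above every other array, and the difference was -0.17 ± 0.87 (SE; limma adjusted p = 0.899), or -0.87 ± 0.73 (SE; adjusted p = 0.585) without control tumour 1. Ptx3, the pentraxin that joins TSG-6 and hyaluronan in the mouse cumulus matrix, had a like order, at 9.21, 8.31 and 9.13 in Bmp4 tumours and 7.45, 10.40 and 8.82 in control tumours. Control tumour 2 was thus the highest array, and control tumour 1 the lowest, for Has2, Ptx3 and the probe set that names Tnfaip6. Over the 5 arrays without control tumour 1, control tumour 2 was highest in 11 of the 25 member probe sets, beside 37.6% of all probe sets.

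Hyal2, a hyaluronidase anchored at the cell surface, read 8.58, 8.16 and 8.17 in Bmp4 tumours, against 7.43, 8.10 and 8.26 in control tumours on its only probe set. The difference was 0.37 ± 0.31 (SE; limma adjusted p = 0.503), and 0.12 ± 0.18 (SE; adjusted p = 0.764) without control tumour 1, where the 5 arrays spanned 0.48. Most of the first value came from control tumour 1, which was the lowest array.

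**Figure D4:**
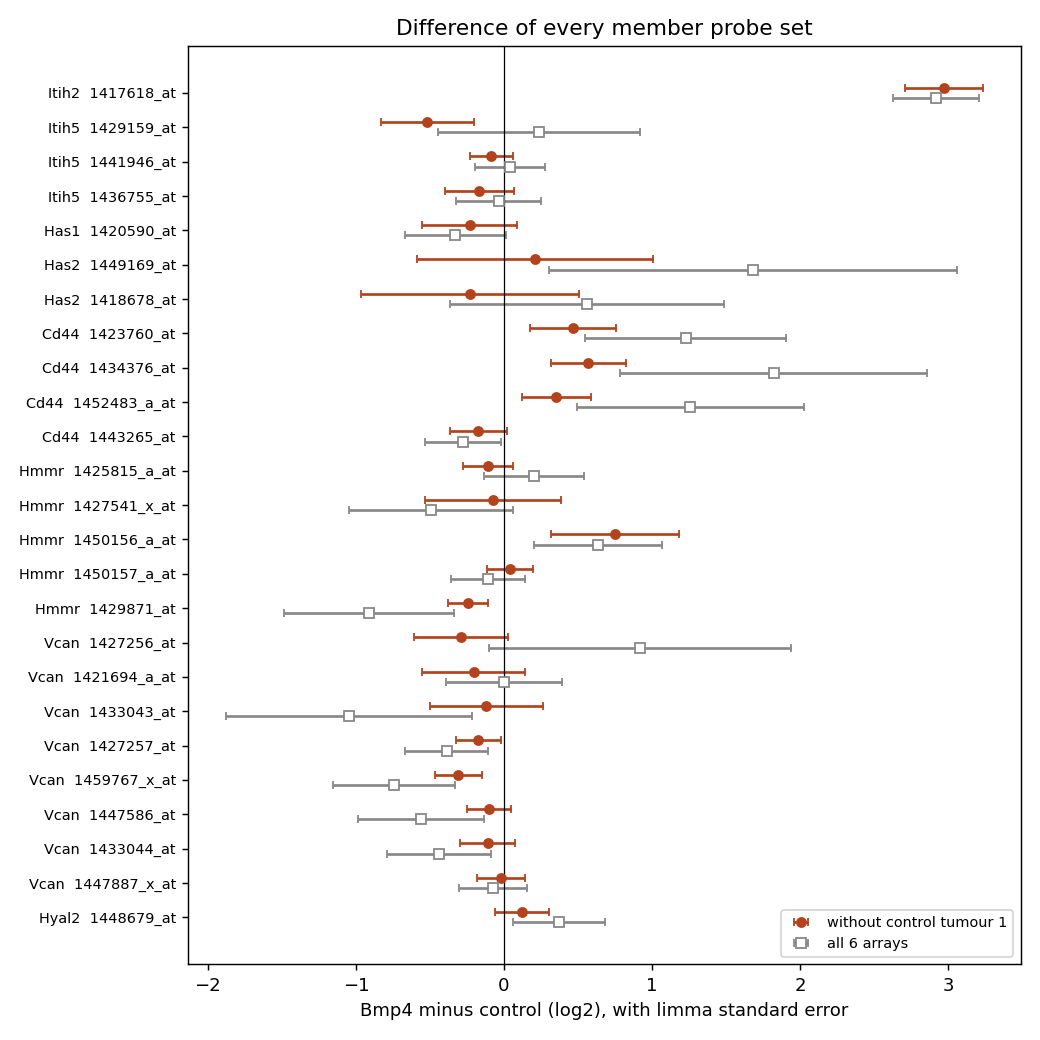
Difference in log2 expression, Bmp4 minus control, with limma's standard error (horizontal axis) for the 25 member probe sets (rows), without control tumour 1 (filled circles) and with all 6 arrays (open squares). Itih2 keeps its position near 2.9 to 3.0 in both settings, while both Has2 rows, all 4 Cd44 rows and the brightest Vcan row (1427256_at) move towards or past 0 when control tumour 1 is left out.

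The wider pathway showed no probe set past the threshold either. Of 36 further symbols, 34 had a probe set, and with the brightest taken for each, 0 of 34 passed with 6 arrays and 0 of 34 without control tumour 1. The groups did not overlap in 2 higher and 4 lower with 6 arrays, and in 3 higher and 4 lower without control tumour 1. As shares these are to be read against the 10.6%, 14.9%, 14.0% and 19.0% of all probe sets given above. The median difference was -0.28 with 6 arrays and -0.04 without control tumour 1.

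Genes that make the sugar precursors of hyaluronan had positive differences in 6 of 7 with 6 arrays and in 5 of 7 without control tumour 1 (median 0.88 and then 0.37). Pgm3, a phosphoglucomutase on the way to UDP-N-acetylglucosamine, differed by 0.52 without control tumour 1 (limma adjusted p = 0.395), and Gfpt1, which starts that pathway, by -0.36 (adjusted p = 0.670). Control tumour 1 was the lowest array in 5 of the 7. The other chains of inter-alpha-inhibitor had patterns unlike that of Itih2. Ambp, which encodes bikunin, the light chain, read 5.37, 5.28 and 5.21 in Bmp4 tumours, against 6.06, 5.20 and 5.20 in control tumours. Without control tumour 1 the Bmp4 values of Ambp all lay above the control values by a small step, and those of Itih4 all lay below. Of all probe sets, 14.0% and 19.0% did so. Itih1 differed by -0.21 without control tumour 1 (limma adjusted p = 0.619). Itih4 lay under the 25th percentile on all 6 arrays and Itih3 on 5. Of the 4 chains, 0 had a positive difference with 6 arrays and 1, Ambp at 0.09, without control tumour 1.

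Other hyaluronan-binding matrix proteins had positive differences in 1 of 10 with 6 arrays and 5 of 10 without control tumour 1, from Ptx3 at -0.73 to the cartilage proteoglycan Acan at 0.19. Among the 6 other receptors, Tlr4, a receptor for microbial products that is also known to sense hyaluronan fragments, read 9.10, 8.16 and 9.13 in Bmp4 tumours, against 4.89, 7.99 and 7.95 in control tumours. Its groups did not overlap in either setting, and the difference was 0.82 without control tumour 1 (limma adjusted p = 0.356). Layn, a membrane lectin, differed by -0.20 (adjusted p = 0.613). Of the 7 other hyaluronidases and depolymerases, 1 had a positive difference in each setting. Hyal3 differed by -0.31 without control tumour 1 (adjusted p = 0.449), and Hyal1 by 0.17 from values under the 25th percentile on all 6 arrays.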

How the data were processed

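The authors deposited log2 expression values, 1 per probe set and array, and the submitters' processing notes list RMA and Partek 6.6. No annotation or build is named in the labels (not given in the sources used here). Per the file headers, the authors' deposited table pairs each probe set with a gene symbol, a ratio (Bmp4 over control), a signed fold-change score, a p-value before and after adjustment, and an F score. The 64 AFFX control probe sets were left out. limma 3.58.1 under R 4.3.3 was run on the remaining 45037 (lmFit, eBayes, Bmp4 minus control, two-sided), with Benjamini-Hochberg adjustment over all of them and a threshold of 0.05, once on all 6 arrays and once without control tumour 1. No probe set was filtered out; one under the 25th percentile of its array is called dim. The number of arrays limits the precision. The fit was tested on simulated data, where changes of 2 log2 units were recovered at 22.7% with 6 arrays and 70.0% without control tumour 1. The simulated noise was independent between probe sets and equally wide on every array. It thus had no array that stood apart as that of control tumour 1 did, and these rates need not hold for the real arrays.

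Members and lists were chosen with earlier results of these data known. All member probe sets are reported. Of each pathway list, the gene with the most positive and the one with the most negative difference without control tumour 1 are named, as are the 5 genes most like Itih2. Tlr4, Ptx3 and Ambp values per tumour were added after values were seen. The same is true of the notes on Itih3, Itih4, Kin and single cell type markers. Alternatives covered normalization, centring, filters on dim probe sets, moderation, array weights, tumour number as a block, gene-level summaries, each tumour left out and the authors' table.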

Additional observations from a re-analysis of the deposited data

How the results depend on the processing

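Leaving aside array weights, the Itih2 difference was positive in all 17 alternatives, from 2.61 to 3.37 on the log2 scale. The highest was that of the authors' deposited table, and it was 3.36 without control tumours 1 and 2, an alternative chosen after seeing the data. Itih2 was picked by this difference and its groups lay 2.44 apart, so leaving tumours out could not turn its sign. On the brightest probe set, Cd44, Hyal2 and Has2 also stayed positive in these 17, with Has2 running from 0.17 to 3.04. Signs turned for the remaining genes, on the brightest probe set. With quantile normalization again Hmmr was -0.12, and with arrays centred on the 75th percentile Hmmr was -0.10 and Itih5 -0.070. The mean of probe sets per gene gave -0.14 for Hmmr and -0.29 for Vcan. As each tumour was left out in turn, Itih5 ran between -0.52 and 0.88, Hmmr between -0.11 and 0.42 and Vcan between -0.29 and 1.67, with the lowest of each without control tumour 1. Leaving out control tumours 1 and 2 gave 0.28 for Has1, -0.23 for Hmmr and -0.0021 for Vcan. The authors' deposited table gave log2 ratios of -0.50 for Itih5 and -0.34 for Vcan. For these 2 genes the fit without control tumour 1 gave -0.52 and -0.29, and that with 6 arrays 0.23 and 0.92. Which arrays the authors' ratios rest on was not tested. Array weights with 6 arrays called 23167 probe sets and gave -1.07 for Itih5, -0.85 for Has2 and -0.58 for Vcan, but their estimate did not converge and put a weight of 33.2 on control tumour 2, so these values are not used. The number of probe sets called with 6 arrays was 0 to 4 as each tumour was left out, the 4 being without control tumour 1. Without control tumour 1 it was 4 as first fitted, 7 with centring on the 75th percentile, 1 with signal at or above the 50th percentile, 2 with array weights, 7 with the brightest probe set per gene, and 0 to 2 as a further tumour was left out. The cause of these changes was not tested, apart from fewer arrays or probe sets where the setting removes them. With tumour number as a replicate block, 0 probe sets were called with 6 arrays and 0 without control tumour 1. Deviations of same-numbered tumours from their group means correlated at -0.13, -0.22 and -0.04 across probe sets. The control mean includes control tumour 1, whose array stood apart, so these correlations cannot settle whether the numbers pair the samples.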
